A study of Gallus gallus with 27 samples.

Results

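Clusters of closely spaced accessible intervals on chromosomes 1 to 10 of the chick were examined as units, in cells sorted from the vagal region of the embryo. The members were found from position alone. On chromosomes 1 to 10 the intervals were sorted by start, neighbours whose starts lay at most 2000 bp apart were joined into a run, and runs of 5 or more intervals were kept. This gave 65 clusters with 339 intervals, out of 95694 intervals on those chromosomes and 140062 in all. The same joining over every chromosome gave 117949 runs, and most of the runs on chromosomes 1 to 10 (68294 of 80775) were single intervals. The next class below the threshold, runs of 4 intervals, held 273 runs.

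Accessibility was measured by ATAC-seq, in which a transposase cuts and tags open DNA, so that the number of reads over an interval follows how open it is. All embryos were wild-type chick embryos electroporated at HH8/9 with the reporters NC2:citrine and E2:citrine, and the vagal region was dissociated and sorted by fluorescence at Hamburger-Hamilton stage 18 (HH18) or 25 (HH25). Double-positive cells are those labelled NC2+ and E2+, E2-only cells are NC2- and E2+, and negative cells are NC2- and E2-. Double-positive and E2-only cells are called crest populations below after their reporters, and that they are crest cells was not tested. Each of the 6 groups has 3 libraries. Both reporters carry citrine in the labels, and the way in which the cells carrying each were told apart is not stated. Electroporation is transient and reaches only part of the cells, so the negative group can hold crest cells that took up no reporter. Samples labelled HH10 are not analysed here.

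The vagal neural crest leaves the hindbrain next to the first somites and gives rise to the enteric nervous system, to parasympathetic neurons and glia, and to mesenchyme of the outflow tract and pharyngeal arches. NC2 and E2 are known as enhancers of FOXD3 and SOX10, which encode transcription factors of neural crest cells. Genes that are active in one cell type often lie among several enhancers set close together along the DNA, and such a group can hold elements that open together or elements that open in different cells. A cluster defined by spacing alone can therefore behave as 1 unit or as a mixture, and the files allow both to be measured.

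Library totals over all intervals ran from 992341 reads, in the negative library R2 of HH18, to 6976050, and every library but that one held at least 2586375. The lowest deposited count in each of the 18 libraries was 1, so a count of 1 may stand for 0. Spearman correlations over the summed counts of the 113444 runs that passed the filter on low counts were 0.749 to 0.932 between libraries of a group and 0.348 to 0.813 between groups. Positions are those of the galGal5 build as the file lists them. No annotation of that build was used, so clusters are named by position, no gene is assigned to them, no sequence is shown, and the cell types named by the labels could not be checked against marker genes. The labels speak of biological replicates without saying how embryos were pooled, so p-values measure the spread between these libraries. In sorted bulk cells, a change in how many cells have an interval open and a change in how open it is in each cell cannot be told apart.

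Spacing inside the clusters is set by the rule and is given as a description. Their spans ran from 3907 to 8809 bp with a median of 5638 bp, and the starts inside them lay 382 to 1999 bp apart with a median of 1324 bp. The median spacing over all intervals of chromosomes 1 to 10 was 5461 bp. Of the 65 clusters, 53 held 5 intervals, 10 held 6 and 2 held 7. The member intervals are all 200 bp wide and do not overlap, so they cover 67800 bp of the 380800 bp that the clusters span. The clusters of 7 lie on chromosome 5 at 19293536 to 19301594 and on chromosome 1 at 51259498 to 51267752. The widest lie on chromosome 6 at 19124191 to 19133000 and on chromosome 3 at 58253079 to 58261486.

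Every chromosome from 1 to 10 held clusters, in unequal numbers. Chromosome 1 had 17, chromosome 5 had 9, chromosome 3 had 7, chromosomes 4 and 7 had 6 each, and chromosome 2, the second longest, had 5. Per 10 Mb between the first and last interval, the number ran from 0.334 on chromosome 2 to 2.12 on chromosome 9, and the share of the intervals that lay in clusters from 0.145% to 0.71% on the same chromosomes. The density of all intervals also differed along this set, from 1.14 per 10 kb on chromosome 1 to 1.6 per 10 kb on chromosome 10. Clusters were mostly far from each other: only 6 neighbouring pairs had starts under 300000 bp apart. The closest pair lies on chromosome 4, at 79394153 and 79411602, with starts 17449 bp apart. Outside chromosomes 1 to 10 the same joining gave 36 runs of 5 or more on chromosomes 11 to 33, 9 on chromosome Z and 3 on other sequences.

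Member intervals had a median level of 5.72 CPM (counts scaled to a common library size) over the 18 libraries, against 4.47 CPM for all intervals of chromosomes 1 to 10. Their upper quartile was 9.06 CPM against 7.78 CPM, and the highest member averaged 65.2 CPM, whereas the highest interval of those chromosomes averaged 3600.0 CPM. Of the members, 33 (9.73%) were among the most open 10% of intervals of those chromosomes and 3 (0.885%) among the most open 1%. All 65 clusters passed the filter on low counts as units, and 332 of the 339 members passed it as single intervals. The 7 that did not pass had group means between 0.537 and 2.66 CPM. They lie in 7 different clusters, on chromosomes 1, 2, 3, 4, 8 and 9, and 2 of them are on chromosome 3.

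The share of each library's reads that lay in clusters was highest in double-positive cells at HH18. It was 0.304%, 0.296% and 0.301% in HH18 double-positive libraries, 0.273%, 0.256% and 0.256% in E2-only libraries and 0.246%, 0.258% and 0.235% in negative libraries. At HH25 it was 0.272%, 0.269% and 0.253% in double-positive libraries, 0.241%, 0.242% and 0.242% in E2-only libraries and 0.243%, 0.256% and 0.235% in negative libraries. The HH18 double-positive libraries stood above all 15 others, and the HH25 double-positive range overlapped that of the HH25 negative libraries. Members make up 0.242% of all intervals, so the HH25 E2-only libraries gave clusters about the share of an average interval.

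**Figure D1:**
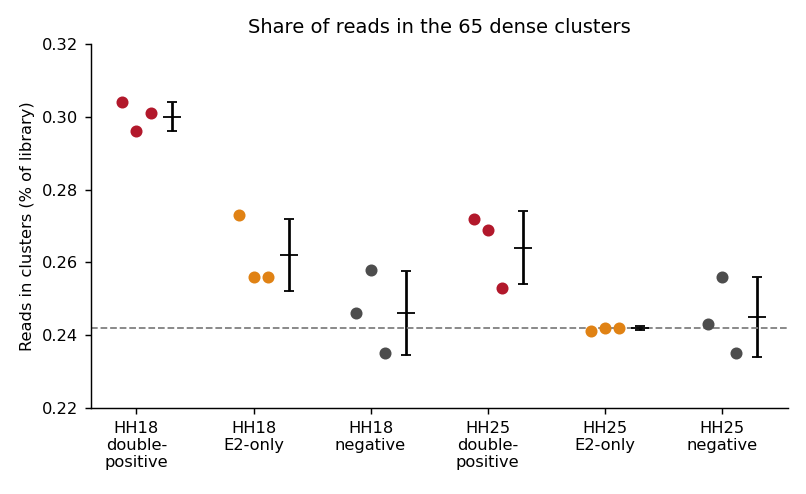
Percent of each library's reads that lie in the 65 clusters (vertical axis) for the 6 groups (horizontal axis). Points are libraries, the black mark and bar are the mean and SD of 3 libraries, and the dashed line is the percent of all intervals that are members, 0.242; the HH18 double-positive libraries, at 0.296 to 0.304, lie above all others.

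These shares were compared by an exact two-sided permutation test of the difference of means, with labels exchanged within stage (or within population for the stage comparison) and Benjamini-Hochberg adjustment over 4 comparisons. The 3 differences between populations are averages over both stages. Double-positive cells had 0.0368 percentage points more than negative cells (exact p = 0.01, adjusted p = 0.0133). Their group means were 0.3% against 0.246% at HH18 and 0.264% against 0.245% at HH25. Double-positive cells had 0.0306 points more than E2-only cells (exact p = 0.005, the smallest that 400 arrangements allow, adjusted p = 0.01). E2-only and negative cells differed by 0.00618 points (exact p = 0.325, adjusted p = 0.325). Averaged over the 3 populations, the share at HH25 was lower than at HH18, with a difference of -0.0193 points (exact p = 0.00475 over 8000 arrangements, adjusted p = 0.01). The group mean went from 0.3% to 0.264% in double-positive and from 0.262% to 0.242% in E2-only cells. In negative cells it was nearly level, at 0.246% and 0.245%. With runs joined at up to 4000 bp, none of the 3 comparisons between populations passed the exact test (adjusted p = 0.1, 0.1 and 0.125), while the stage difference did (adjusted p = 0.003).

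At HH18 most clusters differed between double-positive and negative cells in the main fit, and more were higher than lower. Summed counts of each run were tested with the edgeR quasi-likelihood test, fitted to all 18 libraries and adjusted by Benjamini-Hochberg over 113444 runs, and a cluster was called at an adjusted p below 0.05. In double-positive against negative cells 31 clusters rose and 9 fell, which is 47.7% and 13.8% of the 65, beside 18.3% of all tested runs higher and 15.3% lower. Called in either direction were 61.5% of clusters, and 47.7% to 56.9% without 1 library, lowest without double-positive R1. The median log2 fold change was 0.4 over clusters and -0.07 over all runs. Scaling by library totals alone put the median of all runs at -0.25 and left 23 clusters higher against 14 lower, or 62.2% higher instead of 77.5%. A run sum of 5 intervals holds more reads than a single interval, and the share of runs called higher was 19.5% for runs of 1, 25.9% for runs of 2, 30.9% for runs of 3 and 31.5% for runs of 4. Taken as single intervals, 85 of 332 members were higher (25.6%) and 48 lower (14.5%), beside 17.8% and 13.9% of all 134020 intervals tested. The median log2 fold change was 0.06 for members and -0.05 for all intervals, which here and below include other chromosomes. Among intervals in runs of 1 on the same chromosomes as the clusters, 19.8% were higher and 11.4% lower, with a median of 0.08. The members' median was thus not above that of these intervals, while larger shares of members were called in both directions. Members also had a higher median average log2 CPM (2.65 against 2.36), so these shares do not compare intervals of equal level.

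**Figure D2:**
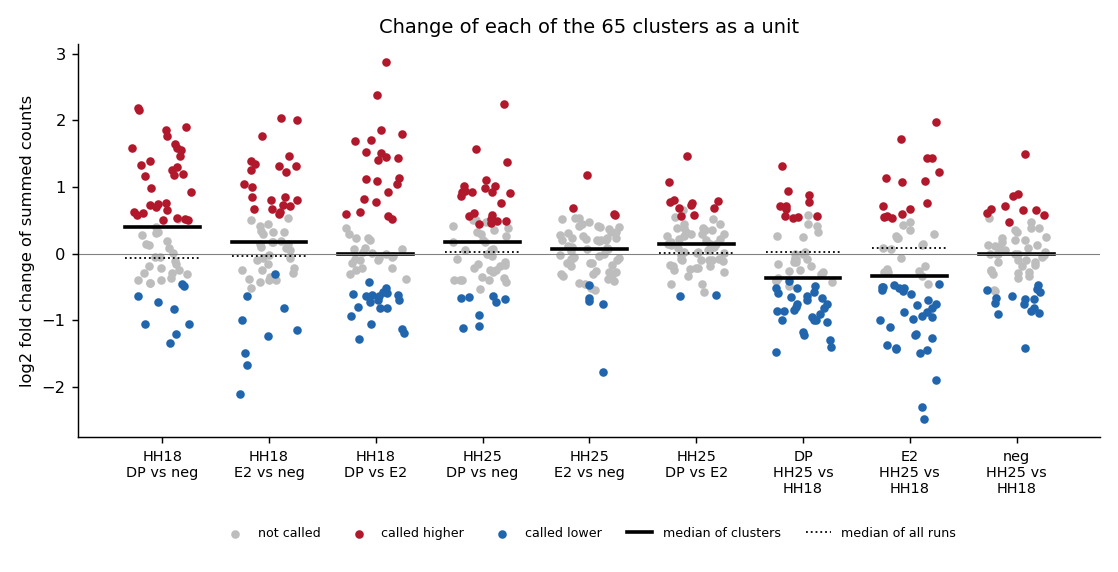
The log2 fold change of the summed counts of each of the 65 clusters (vertical axis) in 9 comparisons (horizontal axis; DP is double-positive, E2 is E2-only, neg is negative). Coloured points passed an adjusted p below 0.05 in the edgeR quasi-likelihood test; solid bars are the median of clusters and dotted bars the median of all runs, for example 0.4 and -0.07 in HH18 DP against neg.

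Among clusters of at least median level, the largest rise was on chromosome 1 at 80721628 to 80728920. Its summed level was 88.9, 106 and 93.1 CPM in HH18 double-positive libraries, 20.3, 20.8 and 14.1 CPM in E2-only libraries and 21.2, 29.0 and 18.1 CPM in negative libraries. The double-positive libraries lay far above both other groups, which overlapped each other. The log2 fold change was 2.15 (SE 0.2, adjusted p = 2.8e-16, edgeR) against negative and 2.39 (SE 0.2, adjusted p = 4.8e-20, edgeR) against E2-only cells. At HH25 the double-positive libraries held 58.2, 74.3 and 51.3 CPM, the E2-only libraries 31.6, 22.9 and 32.5 CPM and the negative libraries 11.2, 11.4 and 16.2 CPM. The 3 populations no longer overlapped at all at that stage, with E2-only cells between the others, at log2 1.18 above negative cells (SE 0.2, adjusted p = 6.4e-06, edgeR).

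The cluster of 7 on chromosome 5 at 19293536 held 104, 84.3 and 92.7 CPM in HH18 double-positive libraries and 29.8, 42.9 and 22.8 CPM in negative libraries, a log2 fold change of 1.64 (SE 0.18). E2-only libraries, at 27.8, 30.1 and 28.4 CPM, lay within the negative range. On chromosome 3 at 40728273 to 40734187 the cluster held 123, 93.7 and 80.6 CPM in double-positive, 46.0, 38.6 and 49.9 CPM in E2-only and 35.4, 22 and 26.9 CPM in negative libraries. Here the 3 populations followed an order without overlap, with log2 differences of 1.76 (SE 0.18) and 0.63 (SE 0.19) against negative cells. At HH18, 16 clusters (24.6%) were higher in double-positive cells than in each of the other populations, beside 12.2% of all runs, and at HH25 there were 10 (15.4%), beside 6.14%. Most runs are single intervals with fewer reads, and these shares were not counted for runs of equal size. The calls joined in each count share the double-positive libraries, so these counts are a description.

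Some clusters were most open in E2-only cells. Against negative cells at HH18, 22 clusters rose in E2-only cells and 9 fell. These are 33.8% and 13.8%, beside 18.4% and 15.4% of all runs. Of runs of 4 on the same chromosomes as the clusters, 31.1% were higher and 19.4% lower. The share of clusters called higher was thus close to that of runs of 4. The median log2 fold change was 0.17 over clusters and -0.03 over all runs. Among members 75 were higher and 45 lower, which is 22.6% and 13.6%, beside 18.2% and 14.4% of all intervals. In either direction 36.1% of members were called, beside 36.6% of intervals in runs of 4. The median of members was -0.05, against -0.01 for all intervals and 0.06 for intervals in runs of 1 on those chromosomes. The higher median of clusters was thus not seen over single members. With library totals alone, which moved the median of all runs to -0.22, the split of clusters was 18 higher and 17 lower. At HH18, 12 clusters (18.5%) were higher in E2-only cells than in both other populations, beside 10.7% of all runs, and 16 (24.6%) were higher in both crest populations than in negative cells, beside 5.9%. Most runs are single intervals with fewer reads, and these shares were not counted for runs of equal size. The calls joined in each count also share libraries, so these counts are a description.

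The largest rise in E2-only cells was on chromosome 3 at 24690579 to 24696012. Its level was 84.6, 104 and 90.0 CPM in E2-only libraries, 46.6, 41.8 and 44.6 CPM in double-positive libraries and 23.3, 18 and 24.2 CPM in negative libraries. None of the 3 populations overlapped, and double-positive cells were intermediate. The log2 fold change against negative cells was 2.04 in E2-only cells (SE 0.2, adjusted p = 8.5e-15, edgeR) and 0.98 in double-positive cells (SE 0.21, adjusted p = 6.6e-05, edgeR). On chromosome 5 at 34999544 to 35005199 both crest populations were high, with 109, 78.4 and 97.7 CPM in E2-only, 84.1, 81.7 and 80.6 CPM in double-positive and 28.2, 25 and 29.6 CPM in negative libraries. The 2 crest populations overlapped each other and neither overlapped negative cells. On chromosome 3 at 75225369 to 75231938 the order was again E2-only, double-positive, negative, with 71.3, 85.7 and 67.2 CPM, 44.7, 49.4 and 42.8 CPM and 26.8, 31.0 and 32.2 CPM. On chromosome 1 at 53985447 to 53992386 the E2-only libraries, at 89.9, 95.4 and 90.0 CPM, stood alone above double-positive libraries at 45.7, 47.2 and 50.3 CPM and negative libraries at 28.4, 51.9 and 42.7 CPM.

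Double-positive and E2-only cells, the 2 populations that share the E2 signal, differed from each other in 42 of 65 clusters at HH18, beside the 40 and 31 given above for each against negative cells, which are comparisons that share libraries. In double-positive against E2-only cells at HH18, 22 clusters were higher and 20 lower, which is 33.8% and 30.8%, beside 17.5% and 17.0% of all runs. The median was -0.01 over clusters and 0.00 over all runs. Among members 77 were higher (23.2%) and 70 lower (21.1%), beside 17.0% and 16.5% of all intervals.

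On chromosome 4 at 79411602 to 79416138 double-positive libraries held 99.6, 78.8 and 78.8 CPM, E2-only libraries 26.6, 27.1 and 20.5 CPM and negative libraries 38.1, 38.9 and 37.6 CPM. Double-positive cells were above both, by log2 1.17 (SE 0.19) against negative and 1.8 (SE 0.19) against E2-only cells, while E2-only cells lay below negative cells by -0.63 (SE 0.2, adjusted p = 0.0088, edgeR), a difference that did not pass without E2-only R3 (-0.51, adjusted p = 0.078, edgeR). A cluster on chromosome 9 at 1554645 to 1559033 had the same order, with 68.1, 64.3 and 62.1 CPM in double-positive, 39.4, 42.9 and 38.3 CPM in negative and 25.6, 20.8 and 20.7 CPM in E2-only libraries. In both clusters negative cells were intermediate and no groups overlapped. Chromosome 1 at 34279870 to 34285314 held 92.3, 108 and 105 CPM in double-positive, 34, 25.9 and 23.5 CPM in E2-only and 36.8, 41.9 and 33.3 CPM in negative libraries. Only double-positive libraries stood apart there, by 1.47 (SE 0.18) against negative and 1.85 (SE 0.18) against E2-only cells. Of the clusters with lower levels in double-positive cells, the one on chromosome 5 at 31230478 to 31236385 held 60.5, 64.3 and 63.8 CPM in double-positive, 62.5, 61.9 and 62.5 CPM in negative and 96.9, 100 and 113 CPM in E2-only libraries, so that only E2-only cells stood apart. On chromosome 8 at 5788206 to 5793864 the double-positive libraries were lowest, at 31.2, 33.4 and 31.0 CPM against 66.8, 40.7 and 57.6 CPM in E2-only and 41.0, 48.9 and 45.0 CPM in negative libraries. The difference from E2-only cells was -0.81 (SE 0.18), and that from negative cells, -0.48 (SE 0.19, adjusted p = 0.041, edgeR), did not pass without double-positive R1 or R3 or negative R2 (adjusted p = 0.051 to 0.054, edgeR) or with scaling factors taken from single intervals (adjusted p = 0.056, edgeR).

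At HH18, 4 clusters (6.15%) were called lower in both crest populations than in negative cells, beside 8.57% of all runs. Among these, chromosome 1 at 194240965 to 194246603 held 49.1, 51.9 and 41.3 CPM in negative libraries, 24.9, 15.6 and 27.1 CPM in double-positive libraries and 18.8, 16.1 and 9.17 CPM in E2-only libraries. Both crest populations lay below all negative libraries, and their ranges overlapped, with double-positive cells 0.62 above E2-only cells (SE 0.22, adjusted p = 0.019, edgeR). The log2 fold changes were -1.05 (SE 0.21, adjusted p = 1.7e-05, edgeR) in double-positive and -1.67 (SE 0.21, adjusted p = 1.4e-10, edgeR) in E2-only cells. The most open cluster of all, on chromosome 1 at 48192320 to 48199675, held 235, 249 and 244 CPM in negative, 222, 158 and 206 CPM in E2-only and 146, 145 and 148 CPM in double-positive libraries at HH18. All 3 groups were separate, with double-positive cells lowest by -0.72 against negative cells (SE 0.13, adjusted p = 1.4e-06, edgeR). The cluster on chromosome 7 at 21787524 to 21793395 was lower in double-positive than in negative cells at HH18, by -0.83 (SE 0.18), and at HH25, by -0.64 (SE 0.17).

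Several clusters below the median level had larger differences. They fall outside the naming rule and were picked after their values were seen. On chromosome 3 at 29228790 to 29233550 double-positive libraries held 90.1, 81.7 and 89.2 CPM at HH18 and E2-only libraries 13.7, 10.6 and 10.5 CPM, a log2 difference of 2.88 (SE 0.22), the largest of that comparison. On chromosome 4 at 40491859 to 40496547 double-positive libraries held 87.9, 52.7 and 70.6 CPM against 14, 19.0 and 15.5 CPM in negative libraries, a log2 fold change of 2.18 (SE 0.22). On chromosome 5 at 26531198 to 26536240 the negative group had the highest mean at both stages, with 49.1, 56.9 and 21.8 CPM at HH18, where 1 double-positive library (25.4 CPM) lay above its lowest value, and 32.6, 45.1 and 29.9 CPM at HH25. There the E2-only libraries held 9.63, 11.4 and 8.11 CPM at HH18 and 12.2, 10.9 and 8.2 CPM at HH25, below every negative library of their stage.

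At HH25 fewer clusters were called between populations than at HH18. In double-positive against negative cells 22 clusters rose and 8 fell, which is 33.8% and 12.3%, beside 14.3% and 7.41% of all runs, with medians of 0.18 and 0.03. In E2-only against negative cells 4 rose and 5 fell, which is 6.15% and 7.69%, beside 5.1% and 2.92% of all runs, with medians of 0.07 and 0.07. Set against E2-only cells, double-positive cells had 11 higher and 2 lower clusters, which is 16.9% and 3.08%, beside 6.86% and 2.59% of all runs, with medians of 0.14 and 0.01. The splits moved with the scaling: with median-of-ratios factors they were 15 higher and 10 lower for double-positive and 3 and 7 for E2-only against negative cells, and with library totals 11 and 4 for double-positive against E2-only cells. The 9 calls in E2-only against negative cells dropped to 2 without negative R2, to 5 without E2-only R1 and to 6 without E2-only R3 of HH25. Over all runs too, the shares called were smaller than at HH18. Among members the counts were 57 higher and 34 lower for double-positive against negative cells (17.2% and 10.2%, beside 13.2% and 7.83% of all intervals). For E2-only against negative cells they were 21 and 25 (6.33% and 7.53%, beside 3.79% and 3.46%), and for double-positive against E2-only cells 40 and 10 (12.0% and 3.01%, beside 7.0% and 2.07%). In the same order, the median log2 fold change of members was -0.01, -0.02 and 0.12. Over all intervals it was -0.01, 0 and 0.05.

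Among the clusters higher in double-positive cells at HH25, the one on chromosome 7 at 2307420 to 2312899 held 52.8, 60.0 and 47.2 CPM in double-positive, 30.5, 29.4 and 31.6 CPM in E2-only and 26.3, 23.9 and 28.9 CPM in negative libraries at HH25. At HH18 the values were 76.9, 67.9 and 79.5 CPM, 44.4, 46.6 and 40.1 CPM, and 28.7, 37.9 and 33.3 CPM in the same order of populations. Double-positive cells stood above both others at both stages. On chromosome 9 at 7991450 to 7996764 the cluster held 97.2, 78.4 and 79.8 CPM in double-positive, 44.9, 51.5 and 51.5 CPM in E2-only and 42.5, 47.5 and 36.3 CPM in negative libraries at HH25, and its log2 fold change against negative cells was 1.01 (SE 0.16, adjusted p = 2.9e-07, edgeR). The cluster on chromosome 1 at 53985447 was the 1 named cluster lower in double-positive than in E2-only cells at HH25, at 40.9, 42.7 and 42.0 CPM against 64.1, 67.0 and 63.5 CPM, with negative libraries at 54.1 to 55.9 CPM between them.

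From HH18 to HH25 the clusters fell in more cases than they rose in both crest populations, under the main scaling. In double-positive cells 28 fell and 11 rose, which is 43.1% and 16.9%, beside 16.6% and 18.4% of all runs, and the median log2 change was -0.37 over clusters against 0.02 over all runs. In E2-only cells 31 fell and 15 rose, which is 47.7% and 23.1%, beside 25.3% and 28.6%, with medians of -0.33 and 0.09. In negative cells 15 fell and 10 rose, which is 23.1% and 15.4%, beside 11.2% and 11.0%, with medians of -0.01 for both. This rests in part on the scaling, and in E2-only cells the excess of falls was not seen with library totals. Library totals alone put the median of all runs at 0.14 (double-positive) and 0.31 (E2-only), with 24 lower and 15 higher clusters in the former and 23 lower and 23 higher in the latter. In negative cells 14 clusters were called without negative R1 of HH18 and 15 without negative R3 of HH25, and the split was 12 higher and 10 lower once 1 was subtracted from every count. Run size moved with this too: in double-positive cells 17.5% of runs of 1 fell, 23.8% of runs of 2, 28.4% of runs of 3 and 35.9% of runs of 4 on chromosomes 1 to 10. Over single members, 79 were lower and 40 higher in double-positive cells (23.8% and 12.0%, beside 17.3% and 16.2% of all intervals). In E2-only cells 107 were lower and 76 higher (32.2% and 22.9%, beside 27.2% and 26.1%), and in negative cells 52 and 39 (15.7% and 11.7%, beside 11.0% and 10.7%). All intervals include other chromosomes. In double-positive cells, 18.9% of intervals in runs of 1 on chromosomes 1 to 10 were lower and 13.5% higher, with a median of -0.14 against -0.25 for members. Intervals in runs of 4 there were lower in 21.5% and higher in 11.0%, with a median of -0.33. In E2-only cells, intervals in runs of 4 were lower in 30.9% and higher in 24.9%. The median in E2-only cells was -0.08 for members, -0.04 for intervals in runs of 1 and -0.13 for those in runs of 4. The fall was thus not confined to clusters.

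**Figure D3:**
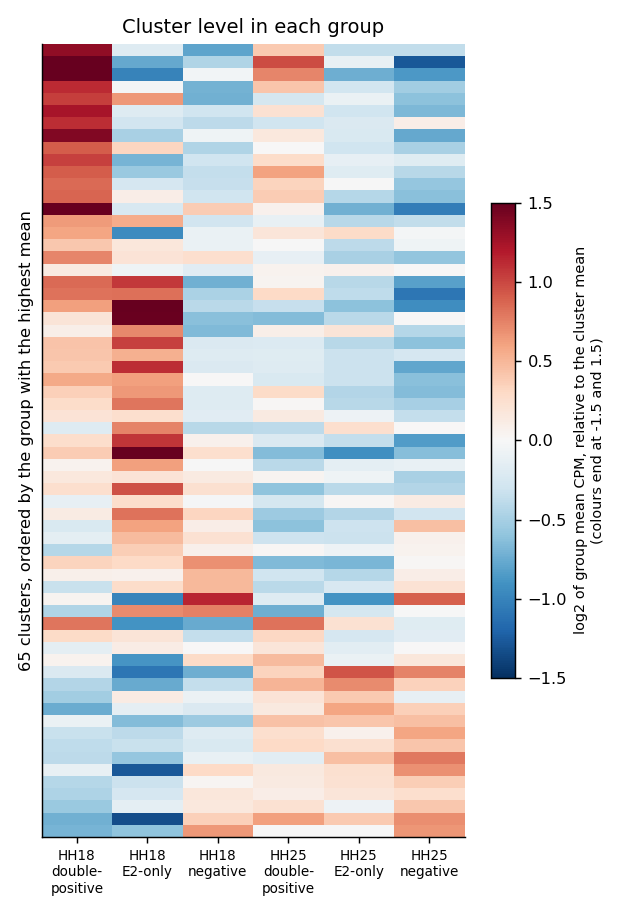
Heat map of the 65 clusters (one line each, ordered by the group with the highest mean) over the 6 groups (columns). Colour is the log2 of the group mean CPM relative to the cluster's own mean over groups, from blue (lower) to red (higher). In HH18 double-positive cells 19 clusters were highest and in HH18 E2-only cells 23, counts that were not made over all runs.

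Taken group by group, 19 clusters had their highest mean in HH18 double-positive cells, 23 in HH18 E2-only cells, 5 in HH18 negative cells, 4 in each crest population at HH25 and 10 in HH25 negative cells. The lowest mean fell in HH25 negative cells in 19 clusters and in HH18 E2-only cells in 14. The shares over all runs were not counted for the highest and lowest group, so these counts are a description. The ratio of the highest to the lowest group mean ran from 1.24 to 7.52 with a median of 2.59, beside a median of 3.73 over all tested runs. Most runs are single intervals with fewer reads than the sum over a cluster, so these medians do not compare runs of equal size. Of the 31 clusters higher in double-positive than in negative cells at HH18, 24 (77.4%) were lower in double-positive cells at HH25 than at HH18, beside 52.5% of the 20734 runs higher in that comparison. These comparisons share the HH18 double-positive libraries, so this count is a description.

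In all 3 populations 9 clusters (13.8%) were called lower at HH25 and 5 (7.69%) higher, beside 4.69% and 5.49% of all runs. Most runs are single intervals with fewer reads, and these shares were not counted for runs of equal size. On chromosome 4 the cluster at 79411602 fell to 27.0, 29.8 and 34.7 CPM in double-positive libraries, a change of -1.48 (SE 0.19). In negative cells it went from 37.6 to 38.9 CPM down to 12.2 to 16.2 CPM, a change of -1.42 (SE 0.2). In E2-only cells it went from 26.6, 27.1 and 20.5 CPM to 21.4, 17.6 and 14.5 CPM, with overlapping libraries and a change of -0.46 (SE 0.2, adjusted p = 0.043, edgeR), which was not recomputed with libraries left out. Its neighbour on chromosome 4 at 79394153 to 79398844 fell in double-positive (-0.86), E2-only (-0.69) and negative cells (-0.81), each with an SE of 0.16 to 0.17. In the opposite direction, the cluster on chromosome 7 at 35134243 to 35139789 rose in double-positive (0.88), E2-only (0.72) and negative cells (0.66), with HH25 levels of 32.1 to 42.0, 45.0 to 62.0 and 43.6 to 45.4 CPM. The rise in negative cells did not pass without R1 of HH18 (0.43, adjusted p = 0.21, edgeR). On chromosome 6 the cluster at 8306605 to 8312828 also rose in all 3, most in E2-only cells, where it went from 20.0, 22.9 and 18.1 CPM to 43.8, 49.0 and 36.1 CPM.

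The difference between the stage change of a crest population and that of negative cells was tested directly in the same fit. For double-positive against negative cells 2 clusters had a more positive change and 9 a more negative one, which is 3.08% and 13.8%, beside 4.68% and 3.47% of all runs. For E2-only against negative cells the counts were 8 and 14, which is 12.3% and 21.5%, beside 9.67% and 7.71%. The more negative share was larger in longer runs on chromosomes 1 to 10. It was 3.64% for runs of 1 and 8.06% for runs of 4 in the first test, and 7.41% and 18.3% in the second. Without double-positive R2 or negative R3 of HH18, 7 clusters were called in the first of these tests instead of 11. Median-of-ratios factors gave 1 more positive and 12 more negative changes in the first test, and library totals gave 12 and 9 in the second. In E2-only cells the cluster on chromosome 3 at 24690579 went from 84.6 to 104 CPM at HH18 to 17.2, 16.6 and 22.5 CPM at HH25, a change of -2.3 (SE 0.19), while negative libraries went from 18 to 24.2 CPM to 10.6 to 17.6 CPM. The stage changes differed by -1.73 (SE 0.29, adjusted p = 4.1e-06, edgeR). At 80721628 on chromosome 1 the cluster went the other way in E2-only cells, which rose by 0.67 (SE 0.2) while negative cells fell by 0.76 on the log2 scale, a difference of 1.42 (SE 0.3, adjusted p = 0.00024, edgeR).

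The cluster on chromosome 1 at 194240965, low in both crest populations at HH18, reached 66.3, 52.6 and 50.8 CPM in double-positive and 48.0, 47.3 and 50.3 CPM in E2-only libraries at HH25, beside 50.6, 75.4 and 53.5 CPM in negative libraries. The groups that were separate at HH18 overlapped or nearly met at HH25, and the stage changes differed from that of negative cells by 0.97 (SE 0.28, adjusted p = 0.016, edgeR) and 1.37 (SE 0.28, adjusted p = 0.00014, edgeR). The first of these did not pass without double-positive R2 or negative R1 of HH18, or without double-positive R1, negative R1 or negative R3 of HH25, with values of 0.74 to 0.89 and adjusted p of 0.053 to 0.11 (edgeR). Double-positive cells came closer to negative cells from above on chromosome 7 at 16884452 to 16890132, where double-positive libraries went from 121, 114 and 93.5 CPM to 71.7, 65.9 and 58.8 CPM and negative libraries from 39.2 to 46.9 CPM to 45.9 to 49.8 CPM, a difference of -0.87 (SE 0.24, adjusted p = 0.0099, edgeR). On chromosome 5 at 7875066 to 7880531 double-positive libraries went from 83.2 to 91.3 CPM to 43.3 to 49.7 CPM while negative libraries stayed within 28.4 to 37.9 CPM, a difference of -0.9 (SE 0.25, adjusted p = 0.011, edgeR).

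The intervals inside a cluster often changed unequally. Unequal change was tested per run with edgeR's diffSpliceDGE, an F test of whether the intervals of a run share 1 fold change, adjusted by Benjamini-Hochberg over the 17191 runs with 2 or more tested intervals. In double-positive against negative cells at HH18, 50 of 65 clusters (76.9%) changed unequally, beside 31.7% of all such runs. For E2-only against negative cells the count was 45 (69.2%, beside 30.6%), and for double-positive against E2-only cells 54 (83.1%, beside 37.9%). At HH25 the counts were 38 (58.5%, beside 22.5%), 23 (35.4%, beside 6.91%) and 15 (23.1%, beside 6.93%) for the same comparisons. Across stages they were 38 in double-positive cells (58.5%, beside 26.1%), 60 in E2-only cells (92.3%, beside 52.1%) and 42 in negative cells (64.6%, beside 21.9%).

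The share of runs with unequal change grew with the number of intervals that could differ. For HH18 double-positive against negative cells it was 29.8% of runs of 2, 46.4% of runs of 3, 62.3% of runs of 4 and 76.9% of clusters. For HH25 E2-only against negative cells it was 6.66%, 10.8%, 13.2% and 35.4%. In that comparison 9 of all 65 clusters were called as units, and 18 of the 23 with unequal change were not. Without E2-only R1 of HH25 only 15 changed unequally. For double-positive against E2-only cells at HH18, 42 of all 65 clusters were called as units. Of the 54 with unequal change there, 16 were not called as units. Both counts depend on how many clusters were called at all and are a description.

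**Figure D4:**
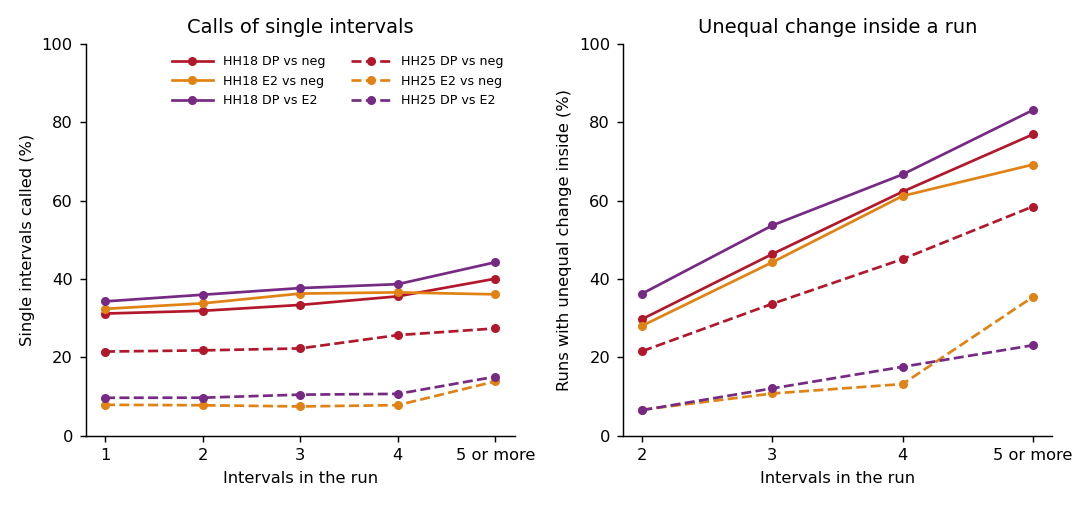
Percent of single intervals called in either direction (left) and percent of runs whose intervals changed unequally (right), against the number of intervals in the run on chromosomes 1 to 10, for 6 comparisons within a stage (solid lines HH18, dashed lines HH25). In HH18 DP against neg the right panel climbs from 29.8% for runs of 2 to 76.9% for clusters.

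Called members of opposite direction shared a cluster in many cases. At HH18 this held for 19 clusters in double-positive against negative (29.2%), 15 in E2-only against negative (23.1%) and 24 in double-positive against E2-only cells (36.9%). The shares of runs of 4 on chromosomes 1 to 10, which have fewer members that could differ, were 18.7%, 19.4% and 22.3%. At HH25 it held for 12, 4 and 3 clusters (18.5%, 6.15% and 4.62%, beside 11.7%, 1.1% and 2.93% of runs of 4). Across stages it held for 14 clusters in the double-positive, 31 in the E2-only and 11 in the negative group (21.5%, 47.7% and 16.9%, beside 15.4%, 39.9% and 8.42% of runs of 4). The fold changes of all tested members had 1 sign in 6 to 11 clusters per comparison between 2 groups, which is 9.23% to 16.9%, beside 16.5% to 24.9% of runs of 4. Not more than 2 clusters had every tested member called the same way. That count was not made for runs of 4, and only 13.9% to 55.1% of single members were called per comparison. Of neighbouring members that were both called in HH18 double-positive against negative cells, 30 of 49 pairs (61.2%) had the same sign. The same value was 69.4% of 1609 pairs in runs of 2 to 4, 62.4% of 5861 pairs with starts over 2000 and up to 10000 bp apart, and 61.0% of 1926 pairs farther apart. In E2-only against negative cells it was 35 of 49 pairs (71.4%) inside clusters, beside 70.3%, 62.5% and 60.6%. The 3 values outside clusters come from other pairs of the same libraries, and no difference between them was tested.

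The cluster of 6 on chromosome 2 at 142348166 to 142354675 was among those picked for called members of both directions in HH18 double-positive against negative cells. The interval at 142350951 held 104 ± 7.58 CPM (SD, n = 3) in HH18 double-positive, 122 ± 10.5 CPM in E2-only and 35.7 ± 3.01 CPM in negative libraries, and made up 65.9% of the cluster, the highest share of any leading interval. The first interval held 23.9 ± 5.87 CPM in double-positive cells and 1.65 ± 1.07 and 2.64 ± 1.69 CPM in the other populations, a log2 fold change of 3.02 against negative cells (SE 0.42). The second, at 142349303, and the fifth, at 142353397, went the other way, at -1.88 (SE 0.53) and -2.32 (SE 0.48). As a unit the cluster was 0.92 higher in double-positive than in negative cells (SE 0.15, adjusted p = 1.4e-07, edgeR) and 0.07 above E2-only cells (SE 0.14, adjusted p = 0.74, edgeR).

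In the cluster of 7 on chromosome 5 at 19293536 different intervals marked different populations. The first held 39.9 ± 6.02 CPM in HH18 double-positive cells, 1.34 ± 1.21 CPM in E2-only cells and 0.984 ± 0.634 CPM in negative cells, a log2 fold change of 5.22 against negative cells (SE 0.43, adjusted p = 2.2e-20, edgeR). The fourth, at 19297643, held 12.3 ± 2.74 CPM in E2-only cells against 1.62 ± 0.955 CPM in double-positive and 2.95 ± 1.31 CPM in negative cells, so it was lower in double-positive than in E2-only cells by -2.86 (SE 0.53). The last, at 19301394, held 11.4 ± 3.13 CPM in HH25 negative cells and 1.09 to 5.96 CPM in the other groups.

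**Figure D5:**
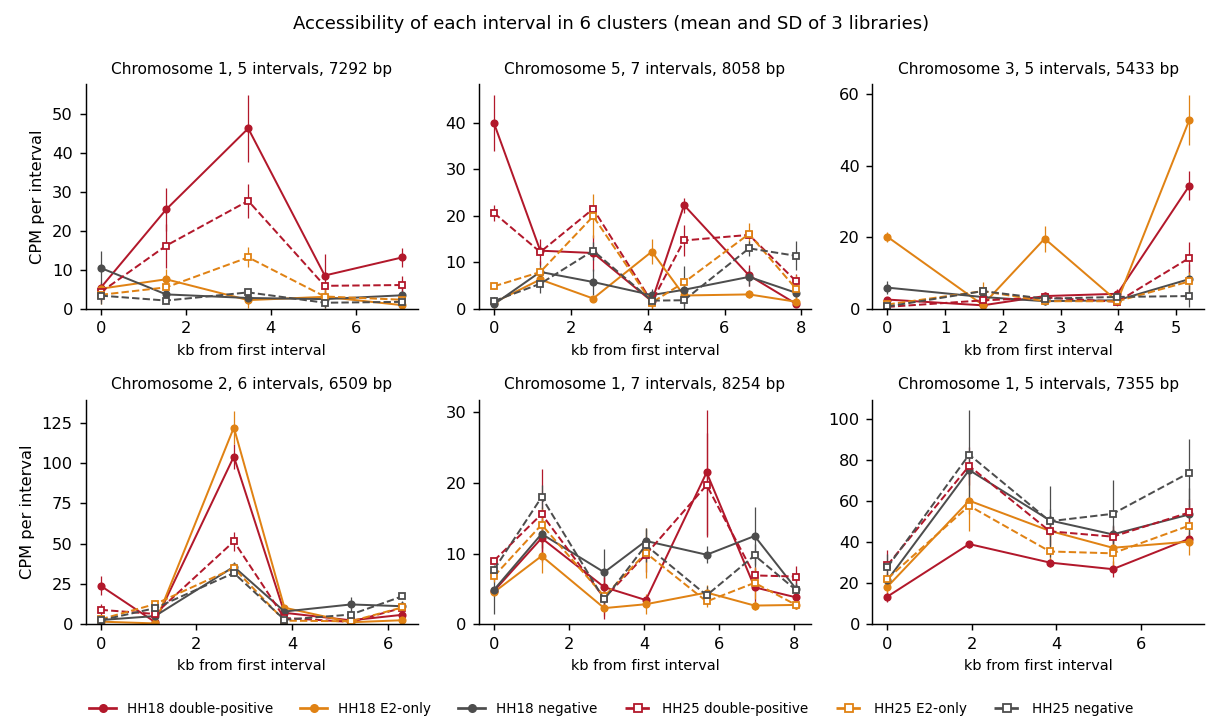
Mean CPM of each interval (vertical axis; bars are the SD of 3 libraries) against distance from the first interval (horizontal axis, kb) in 6 clusters. HH18 groups have solid lines and HH25 groups dashed lines. The cluster of 7 on chromosome 5 (top middle) has separate peaks in double-positive and E2-only cells. In the cluster on chromosome 1 at the lower right, every interval has a lower mean in HH18 double-positive than in HH18 negative libraries.

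In the cluster on chromosome 1 at 80721628 the rise in double-positive cells rested on 4 of 5 intervals. The middle interval, at 80725096, held 46.3 ± 8.56 CPM in HH18 double-positive against 2.22 ± 1.96 CPM in E2-only and 2.77 ± 1.6 CPM in negative cells, and the second held 25.5 ± 5.57 against 7.57 ± 2.53 and 3.69 ± 1.49 CPM. The first interval went the other way in value, at 5.36 ± 1.5 against 10.5 ± 4.29 CPM in negative cells, without passing the test (log2 -0.87, SE 0.44, adjusted p = 0.12, edgeR). In the cluster on chromosome 3 at 24690579, the intervals at 24690579 and 24693304 were open mainly in HH18 E2-only cells, at 20.1 ± 1.32 and 19.6 ± 3.67 CPM against at most 5.91 ± 1.86 CPM in any other group. The last interval was open in both crest populations, at 52.8 ± 6.91 CPM in E2-only and 34.4 ± 3.97 CPM in double-positive against 8.3 ± 4.16 CPM in negative cells.

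The clusters on chromosome 6 at 12414458 to 12419755 and on chromosome 1 at 51259498 were also picked for called members of both directions. Opposite directions in HH18 double-positive against negative cells were thus set by the choice. On chromosome 6 the first interval held 14.2 ± 8.29 CPM in HH18 negative cells against 1.41 ± 0.266 CPM in double-positive and 2.45 ± 1.51 CPM in E2-only cells. The interval at 12416777 held 31.8 ± 7.65 CPM in double-positive against 3.76 ± 2.6 CPM in negative cells, and the second was highest in E2-only cells, at 12.7 ± 1.06 CPM. The first 3 intervals of the cluster were thus each highest in a different population. In the cluster of 7 on chromosome 1 at 51259498, only the interval at 51265170 rose in double-positive against negative cells (log2 1.13, SE 0.32), while those at 51263548 and 51266450 on either side fell (-1.79 and -1.19).

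The most open cluster, on chromosome 1 at 48192320, had called members of only 1 direction in HH18 double-positive against negative cells. All 5 intervals were lower in HH18 double-positive than in negative libraries in mean level, 4 of them passed the test, with log2 fold changes of -0.69 to -0.94, and the fifth was at -0.31 (SE 0.18, adjusted p = 0.2, edgeR). The test of unequal change gave an adjusted p of 0.48 (edgeR diffSpliceDGE) in this comparison and of 0.25 to 0.97 in the other comparisons between 2 groups. Such values do not show that the intervals changed equally. The interval at 48199475 led in HH18 double-positive cells and the one at 48194256 in the other groups. The 5 intervals of the cluster ranged from 13.5 to 41.6 CPM in HH18 double-positive cells and from 21.5 to 75 CPM in HH18 negative cells.

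The interval with the highest mean in a cluster often differed between groups. The same interval led in all 6 groups in 6 clusters, 2 intervals shared the lead in 25 clusters and 3 or more in 34. These counts rank group means, were not tested and were not made for shorter runs. Over all groups the leading interval was 1.03 to 6.57 times the second, so some leads were near-ties. Over all groups the leading interval held 20.6% to 65.9% of its cluster, with a median of 31.7%, and 50% or more in 7 clusters. It was the first or last interval in 24 of the 65 clusters (38.6% on average if every position in a cluster were alike). On chromosome 1 at 92158640 to 92165114, the leading one of 6 intervals held 20.6% over all groups, and 5 of the 6 led in some group. In HH18 E2-only cells alone its interval at 92162338 held 23.7 ± 2.96 CPM while the others held 2.36 to 8.82 CPM.

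In none of the 9 comparisons between 2 groups were 4 clusters called (6.15%, beside 20.0% of all runs), on chromosome 1 at 70959457 to 70964153 and at 92158640, on chromosome 3 at 48942506 to 48948106 and on chromosome 9 at 6561285 to 6567654. Most runs are single intervals with fewer reads, and the share was not counted for runs of equal size. At the other end, 33 clusters were called in 5 or more comparisons. The share over all runs was not counted for this, and at HH18 longer runs were called more often, so this count is a description. The cluster at 92158640 held 41.7 to 57.8 CPM in all HH18 libraries and 42.4 to 67.3 CPM in all HH25 libraries, and the one at 70959457 held 40.0 to 56.4 CPM and 42.3 to 58.5 CPM. The one at 48942506 held 24.3 to 37.7 CPM at HH18 and 22.7 to 41.9 CPM at HH25. The one at 6561285 ranged from 13.2 CPM in a negative library of HH25 to 38.9 CPM in a negative library of HH18, so the missing calls do not show that it was steady. Within these sums, the intervals of the cluster at 92158640 changed unequally in double-positive against negative cells at HH18 (adjusted p = 1.5e-05, edgeR diffSpliceDGE), with 2 intervals higher (log2 1.15 and 1.28) and 1 lower (-2.04).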

How the data were processed

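Counts of ATAC-seq reads over 140062 intervals were deposited by the authors as raw counts, nearly all 200 bp wide (140061 of 140062), per the file header and the labels. The way reads were assigned to intervals is not stated. The submitters' processing notes list Bowtie 1.0.0, MACS2, HOMER 4.7 and the build galGal5. The 18 libraries of HH18 and HH25 were used, with 3 per group. A further 9 columns of per-sample values that match no label were not used, and the HH10 samples were not analysed here. Totals were 992341 to 6976050 reads, which limits single intervals most.

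Counts were summed over runs, kept where filterByExpr passed them (113444 runs, 134020 intervals), scaled by TMM factors and tested with edgeR 4.0.16 (glmQLFit, glmQLFTest, 1 fit over 6 groups) with Benjamini-Hochberg adjustment over all runs or intervals and a threshold of 0.05. Unequal change was tested with diffSpliceDGE. Both steps were first run on simulated counts, with known changes in a small part of the runs or intervals of HH18 double-positive libraries. That simulation used a common spread with an upper limit. Its setting is simpler than these data, in which many more runs were called. Clusters were named by size of change among called, non-overlapping clusters of at least median level, and by size, span, level and members of both directions. The members and lists were chosen with earlier results of these data known. Alternatives were RLE factors, library totals, TMM factors of single intervals, no filter, DESeq2, a replicate block, each library left out, other joining distances, 1 subtracted from every count and a threshold of 0.01. The TMM factors of single intervals were added as an alternative after seeing the data. Replicate numbers were not used as pairs in the main fit.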

Additional observations from a re-analysis of the deposited data

Results flagged for a closer look

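In 11 clusters double-positive cells changed between the stages by a different amount than negative cells, by the interaction term of the edgeR quasi-likelihood fit (Benjamini-Hochberg adjustment over all runs, 3 libraries per group). The change was more positive in 2 (3.08%) and more negative in 9 (13.8%), beside 4.68% and 3.47% of all runs. Among the named clusters, the log2 difference of the changes was 0.97 (SE 0.28) on chromosome 1 at 194240965, 0.54 (SE 0.18) on chromosome 1 at 48192320, -0.9 (SE 0.25) on chromosome 5 at 7875066 and -0.87 (SE 0.24) on chromosome 7 at 16884452. The value at 48192320 (adjusted p = 0.039, edgeR) did not pass in 2 of 3 other scalings, with values of 0.47 and 0.48, and passed in 2 of 12 fits without 1 library.

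Between E2-only and negative cells the change differed in 22 clusters. It was more positive in 8 (12.3%) and more negative in 14 (21.5%), beside 9.67% and 7.71% of all runs. The log2 difference was 1.42 (SE 0.3) on chromosome 1 at 80721628, 1.37 (SE 0.28) on chromosome 1 at 194240965, -1.73 (SE 0.29) on chromosome 3 at 24690579 and -1.37 (SE 0.25) on chromosome 5 at 34999544. In the last of these the E2-only libraries went from 109, 78.4 and 97.7 CPM to 32.3, 31.3 and 39.1 CPM while the negative libraries ranged from 25 to 29.6 CPM at HH18 and from 23.6 to 28 CPM at HH25. These 4 differences passed in all alternatives run, which are 3 scalings and 12 fits without 1 library. Both sets of differences share the negative libraries.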

How the results depend on the processing

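No named value changed sign: of 597 recomputed under other scalings or without 1 library, 569 stayed past the threshold and 28 did not, with shifts of at most 0.34 on the log2 scale. Named values between 2 groups were picked as called and without overlap of libraries, so leaving out 1 library could hardly reverse them. The kept signs were thus largely set by the choice. The differences of stage changes had no such condition on overlap. With a threshold of 0.01 the percent of clusters called went from 46.2 to 29.2 (HH25 double-positive against negative), from 13.8 to 4.62 (HH25 E2-only against negative), from 38.5 to 18.5 (stage, negative), and in the differences of stage changes from 16.9 to 7.69 (double-positive) and from 33.8 to 21.5 (E2-only). With runs joined at up to 4000 bp (1390 clusters) the read share differences were 0.284 percentage points for double-positive against negative cells (adjusted p = 0.1, exact permutation test) and 0.116 for double-positive against E2-only cells (adjusted p = 0.125, exact permutation test). Joining at up to 1000 bp gave 0 clusters, and runs of 8 or more do not occur, the largest holding 7 intervals, so neither gave a value.

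Without 1 library the percent called was 3.08 to 12.3 for HH25 E2-only against negative cells, 21.5 to 35.4 for the stage change in negative cells and 10.8 to 18.5 for the difference of stage changes in double-positive cells, and unequal change in HH25 E2-only against negative cells was 23.1 to 29.2. A group left with 2 libraries borrows its spread from the others. Replicate numbers were not used as pairs in the main fit. Deviations of libraries with the same number correlated at -0.0107 to 0.0248 at HH18 and -0.0319 to 0.112 at HH25. Those with different numbers correlated at -0.0406 to 0.0233 and -0.0897 to 0.0661. Between HH25 E2-only and negative libraries, same-number values were 0.112, 0.0703 and 0.0257, and different-number values ran from -0.0897 to 0.0184. Values this low cannot settle whether libraries were paired. With a replicate block 61.5% of clusters were called in HH18 double-positive against negative cells, as without it, and 47.7% instead of 46.2% at HH25. Depth limits single intervals, and the negative library R2 of HH18 is the shallowest.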
